A study of Mus musculus with 90 samples.

Results

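Hepatokines are proteins that the liver releases into the blood to act on other organs. The 9 genes described here are 8 genes of hepatokine signalling, *Fgf21*, *Klb*, *Gdf15*, *Fgl1*, *Angptl4*, *Angptl6*, *Angptl8* and *Inhbe*, together with the leptin receptor gene *Lepr*. They were chosen by name, and all 9 have a row among the 27654 gene identifiers of the count tables.

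The study asked how the glucocorticoid receptor (GR) of hepatocytes takes part in the liver's response to caloric restriction. It measured polyA RNA of whole livers of male C57BL/6J mice by RNA-seq in 3 experiments. The diet experiment compared 3 WT mice on caloric restriction with 3 on control diet at ZT12, where ZT is zeitgeber time in hours and the dark phase starts at ZT12. The time series compared WT and GR LKO mice on each diet at ZT0, ZT4, ZT8, ZT12, ZT16 and ZT20, with 3 livers per group on caloric restriction (36 libraries) and 3 or 4 on control diet (42 libraries). The corticosterone experiment compared 3 WT mice given corticosterone (CORT) with 3 control mice at ZT12.

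All mice ate chow. The WT mice of the time series were GRfl/fl, with a floxed GR gene and no Cre, and the GR LKO mice were GRfl/fl x Alb-Cre, in which the albumin promoter drives Cre in hepatocytes. The mice of the feeding experiments were housed singly from 12 weeks of age. On caloric restriction the intake was lowered in steps over 4 weeks to 40% fewer calories and by the study's methods held there for 3 weeks, with the food given at ZT12. By the methods control mice ate freely until the last week, when food was offered from ZT12 to ZT0 alone. The titles of the 3 control libraries of the diet experiment read AL (ad libitum), their treatment label names night-restricted feeding, and the regime of these 3 mice is therefore uncertain. In the corticosterone experiment all mice, aged 12 weeks before handling, ate at night, and corticosterone at 5 mg per kg or vehicle was injected on 7 days, at ZT11 by the study's methods.

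Leptin, made by fat tissue, signals through the long form of its receptor and STAT3, and the liver also releases a soluble form of the receptor that binds leptin in the blood. FGF21 is a hormone of the fasted or protein-starved liver that needs the coreceptor beta-Klotho, the product of *Klb*, beside an FGF receptor. ANGPTL4 and ANGPTL8 act on lipoprotein lipase and so direct blood triglycerides to fat tissue or muscle, while *Inhbe* encodes the subunit of activin E, a TGF-beta family ligand made by hepatocytes.

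Levels are given as CPM, the estimated counts of a gene scaled to a library total of 1e6. In units of 1e6 counts, the libraries of the time series held 10.1 to 17.1 on control diet (median 13.4) and 14.2 to 20.8 on caloric restriction (median 17.4), those of the diet experiment 36.4 to 39.5 (median 37.4) and those of the corticosterone experiment 13.7 to 16.1 (median 14.4). In each time series the diet coincides with a separate batch of libraries, so that a difference between diets there cannot be told apart from batch. The targeted gene *Nr3c1* (GR) lay between 59.3 and 114 CPM in the 52 WT libraries (median 85.1) and between 16.5 and 30.5 CPM in the 38 GR LKO libraries (median 24.4), so that no library crossed to the other genotype. All 7 hepatocyte markers were detected in each ZT12 library, with *Alb* the most abundant. Markers of other liver cells were detected too, and in bulk RNA fewer cells of a type and less RNA per cell cannot be told apart.

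**Figure D1:**
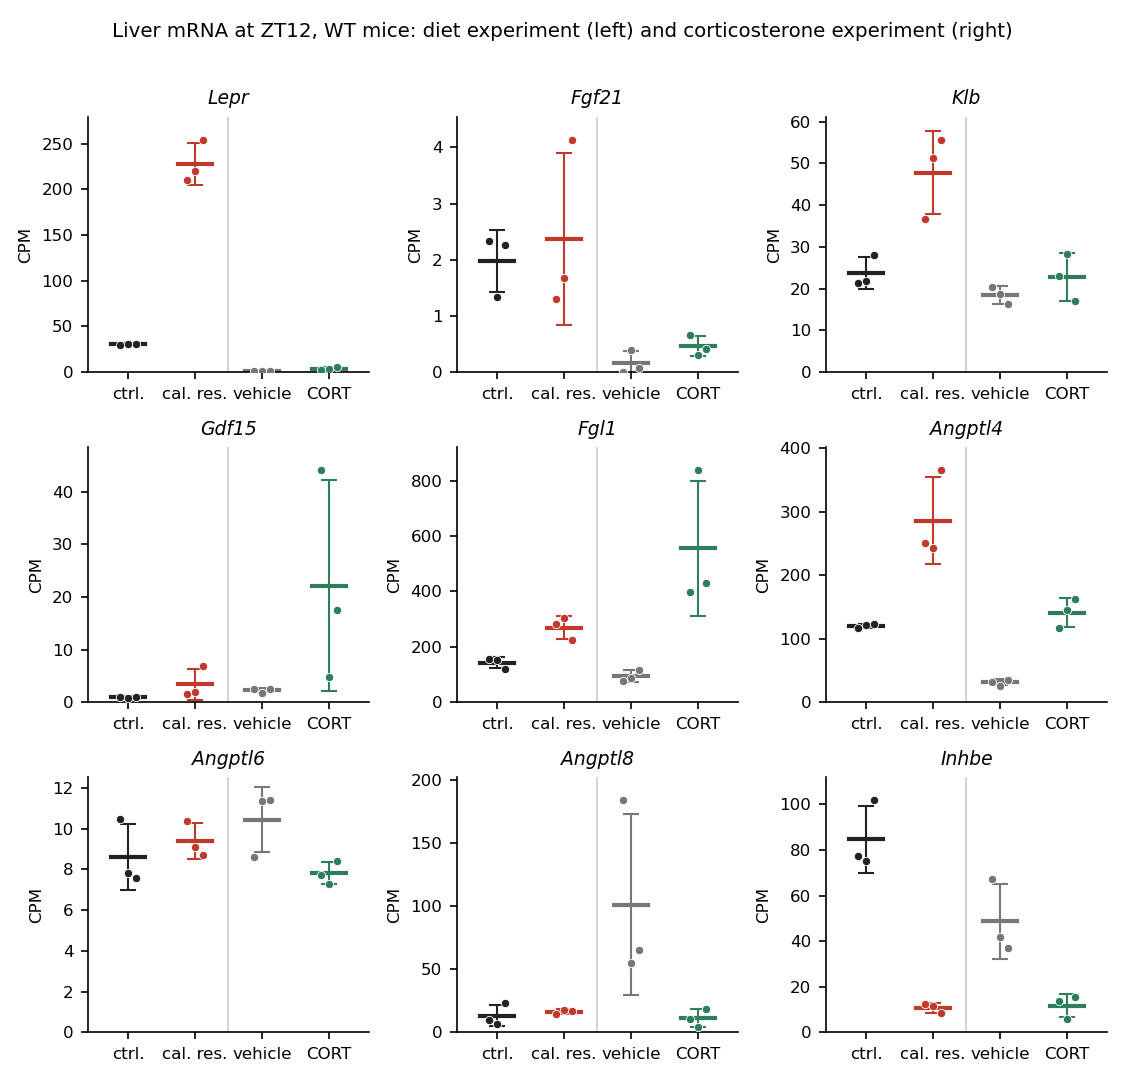
Levels of the 9 genes at ZT12 in WT livers, in CPM on axes from 0, for the diet experiment (left of each panel: control diet and caloric restriction) and the corticosterone experiment (right: vehicle and CORT). Points are single libraries (n = 3 per group), bars are means and error bars are SD. The 3 livers on caloric restriction lie above the 3 controls for *Lepr*, *Klb*, *Gdf15*, *Fgl1* and *Angptl4* and below them for *Inhbe*.

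Caloric restriction changed 6 of the 9 genes at ZT12 in the diet experiment, 5 upwards and 1 downwards, where 47.1% of all genes tested changed. CORT changed 6 of the 8 genes that passed the filter on low counts, 4 upwards and 2 downwards, against 8.11% of all genes. With any 1 library left out, 2 to 5 genes were called with CORT. The median log2 change of the genes described was 1.04 with caloric restriction and 1.01 with CORT, beside -1.8e-06 and -0.00668 over all genes tested. Calls rest on the quasi-likelihood F test of edgeR, adjusted by Benjamini and Hochberg over all genes tested, at an adjusted p under 0.05, and its values are given as edgeR adjusted p. The 2 effects were also tested against each other, each relative to the controls of its own experiment, and 4 of the 9 genes differed between them, against 22.5% of all genes (median difference -0.86, over all genes 0.00338), and 2 to 6 with a library left out.

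*Lepr* (ENSMUSG00000057722, chromosome 4, plus strand) was measured at 29.1, 30.2 and 31.2 CPM in the control livers of the diet experiment and at 209.6, 219.6 and 254 CPM on caloric restriction. Each restricted liver stood far above each control, and within each group the 3 livers were close together. *Lepr* rose by 3.04 on the log2 scale (SE 0.104, edgeR adjusted p = 1.72e-05, higher in 3 of 3 restricted livers), or 8.22-fold. In the corticosterone experiment *Lepr* lay at 1.12, 1.304 and 1.39 CPM in the controls, from 15.4 to 19.8 estimated counts, and at 2.10, 3.21 and 5.74 CPM with CORT. All 3 CORT livers lay above all 3 controls, and the spread among the CORT livers was wider than among the controls. *Lepr* rose by 1.62 (SE 0.39, edgeR adjusted p = 0.0495), a call that was lost when any library other than CORT replicate 1 was left out (adjusted p up to 0.158) and without the filter on low counts (0.0511). The diet effect on *Lepr* exceeded the CORT effect by 1.43 (SE 0.381, edgeR adjusted p = 0.0209), which was lost without control replicate 2 (0.0591) or 3 (0.0659) of the corticosterone experiment.

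Over the time series the *Lepr* level of WT livers ran from 1.28 to 6.03 CPM on control diet (median 2.30, 22 libraries) and from 1.26 to 31.8 CPM on caloric restriction (median 4.39, 18 libraries). In GR LKO livers it ran from 1.45 to 7.604 CPM on control diet (median 2.9955, 20 libraries) and from 2.23 to 12.3 CPM on caloric restriction (median 5.08, 18 libraries). The lowest control liver of the diet experiment (29.1 CPM) was thus above all but 1 library of the time series and above all of the corticosterone experiment. Feeding regime, experiment and library batch cannot be told apart as the source of that gap. At ZT12 under restriction it read 3.87, 31.8 and 7.85 CPM in WT, against 12.3, 3.11 and 4.63 CPM in GR LKO livers. A single WT liver stood high, and the genotypes overlapped. The genotype difference there was -1.29 (95% interval -2.86 to 0.265, edgeR adjusted p = 0.315). It rested on the high WT liver, as the other WT livers lay within the GR LKO range, and its sign turned in a refit. Over the 12 genotype comparisons *Lepr* was called in 0, with differences from -1.29 to 1.07 on caloric restriction and from -0.44 to 1.03 on control diet. By DESeq2 it passed at ZT0 on caloric restriction (1.06, adjusted p = 0.029) and at ZT8 on control diet (1.03, adjusted p = 0.0251), higher in GR LKO livers both times.

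Among 10 other genes of the leptin receptor axis, caloric restriction raised 3 and lowered 1 (median change 0.22), beside 47.1% of all genes tested. No test compared this list, or those that follow, with all genes. *Irs2*, an insulin receptor substrate, rose by 2.46 and *Stat3*, the transcription factor of leptin and interleukin-6 signalling, by 0.64, while *Cish*, a feedback inhibitor of cytokine receptors, fell by 1.22. *Leprotl1*, which lowers leptin receptor at the cell surface, rose by 0.25. CORT raised 1 of the 10, *Stat3*, by 1.04 (median 0.37, 8.11% of all genes). The 2 effects did not differ past the threshold for any of the 10 (edgeR, median difference -0.00392, 22.5% of all genes). In GR LKO livers at ZT12, 1 of the 10 fell on caloric restriction (*Leprotl1*, by 0.52, median 0.05, 15.3% of all genes) and none was called by edgeR on control diet (median 0.02, 2.08%).

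*Fgf21* (ENSMUSG00000030827, chromosome 7, minus strand) was low throughout. It held 1.34, 2.26 and 2.34 CPM in the control livers of the diet experiment and 1.301, 1.67 and 4.13 CPM on caloric restriction. The groups overlapped, with a single restricted liver above the rest, and the difference was 0.38 (95% interval -0.515 to 1.28, edgeR adjusted p = 0.523). In the corticosterone experiment the controls had 0, 0.0702 and 0.397 CPM, where the count of 0 allows up to 0.218 CPM at 3 counts, and the CORT livers 0.311, 0.411 and 0.655 CPM. *Fgf21* did not pass the filter there, nor in 11 of the 12 genotype comparisons. The highest of all time series libraries held 2.45 CPM, and the medians lay at 0.308 (WT) and 0.227 CPM (GR LKO) on control diet and at 0.474 and 0.171 CPM on caloric restriction. At ZT16 under restriction *Fgf21* read 0.421, 1.13 and 2.45 CPM in WT, against 0.119, 0.124 and 0.183 CPM in GR LKO livers, without overlap. The gene lay below edgeR's filter there, and the difference was called by DESeq2 (-3.30, adjusted p = 0.0101), by edgeR without the filter (-3.24, 0.0429) and in a fit over all libraries of the diet (-3.25, 0.00603). These fits share the same ZT16 livers and are not independent. The median estimated count of *Fgf21* over all 90 libraries was 5.

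*Klb* (ENSMUSG00000029195, chromosome 5, plus strand), the coreceptor gene, had 21.3, 21.7 and 28.1 CPM in the control livers and 36.6, 51.2 and 55.6 CPM on caloric restriction in the diet experiment. The lowest restricted liver lay above the highest control. *Klb* rose by 1.13 (SE 0.184, edgeR adjusted p = 0.0027, higher in 3 of 3). With CORT it had 17.0, 23.0 and 28.4 CPM against 16.3, 18.6 and 20.5 CPM, which overlap, a difference of 0.40 (95% interval -0.0129 to 0.818, edgeR adjusted p = 0.284). The 2 effects differed by 0.74 (edgeR adjusted p = 0.108), short of the threshold. No genotype comparison called *Klb* by edgeR, with differences of -0.33 to 0.03 under restriction and of -0.38 to 0.13 with control diet.

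Over the day *Klb* was highest in the light phase. WT livers on control diet had 38.67 to 51.2 CPM at ZT8 and 16.8 to 21.1 CPM at ZT12. On caloric restriction they had 51.6, 58.5 and 61.0 CPM at ZT4 and 29.0, 36.5 and 37.3 CPM at ZT12. The ZT8 and ZT12 livers of the control diet were thus fully apart, and so were the ZT4 and ZT12 livers on caloric restriction. JTK_CYCLE called a 24 h rhythm of *Klb* on control diet in WT (peak-to-trough log2 range 1.17, adjusted p = 0.00293) and in GR LKO livers (1.21, adjusted p = 0.00877), the latter lost without the libraries numbered 2 (0.0523). Here and below, leaving out a replicate number removes its library at every time point that has it. A rhythm call lost that way can come from the smaller number of livers alone. On caloric restriction the range was 0.47 in WT (adjusted p = 0.0805) and 0.57 in GR LKO livers (adjusted p = 0.124), and edgeR's test on sine and cosine passed both times (0.01 and 0.011). The rhythms of the diets differed in WT (edgeR adjusted p = 0.0301), a call lost without the libraries numbered 1, 2 or 4, the last in some control groups alone (adjusted p up to 0.253), and in GR LKO livers the same test gave 0.0866.

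Of 9 tested genes of the FGF21 axis, caloric restriction raised 5 and lowered 2 (median 0.67, 47.1% of all genes called). *Egr1*, an early target of ERK signalling, rose by 2.02, *Dusp6*, a phosphatase that ends it, by 0.98, and *Fgfr4*, the main FGF receptor of hepatocytes, by 0.76. *Fgfr1* fell by 1.17 and *Fgfr3* by 0.80. CORT raised 2 of 9, *Egr1* by 4.28 and *Spry4*, an inhibitor of receptor tyrosine kinase signalling, by 1.62 (median 0.32, 8.11% of all genes). Between the effects 3 of 9 differed, with *Fgfr4* higher by 1.03 under caloric restriction and *Fgfr1* at -1.61 and *Spry4* at -1.64 (median -0.11, 22.5% of all genes). *Spry4* was also the single axis gene that GR deletion lowered at ZT12. It fell by 1.56 on caloric restriction (1 of 9, median 0.000975, 15.3% of all genes) and by 0.95 on control diet (1 of 8, median -0.07, 2.08%).

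*Gdf15* (ENSMUSG00000038508, chromosome 8, minus strand) encodes a cytokine of cell stress that acts on the hindbrain to lower food intake. Its level was 0.796, 0.942 and 1.01 CPM in the control livers of the diet experiment and 1.57, 1.87 and 6.85 CPM on caloric restriction. All 3 restricted livers lay above the controls, and 1 of them lay far above the other 2. *Gdf15* rose by 2.03 (SE 0.59, edgeR adjusted p = 0.0261), but the call was lost without any 1 of the 3 controls (adjusted p = 0.0689 to 0.0848), and without the high liver the change was 1.03. From the ZT12 WT livers of the time series the difference was 0.33 and not called (edgeR adjusted p = 0.736). Controls of the corticosterone experiment had 1.81, 2.54 and 2.58 CPM and CORT livers 4.76, 17.5 and 44.1 CPM. The CORT livers were all higher and spread widely. *Gdf15* rose by 3.34 (SE 0.763, edgeR adjusted p = 0.0417), a call that held in 1 of the 6 refits with a library left out, that without CORT replicate 2, with adjusted p up to 0.156 in the others. The 2 effects did not differ past the threshold (-1.29, 95% interval -3.41 to 0.823, edgeR adjusted p = 0.425).

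The *Gdf15* level of the time series lay between 0.481 and 11.6 CPM in WT (median 3.05) and between 1.00 and 12.3 CPM in GR LKO livers (median 4.39) on control diet, and between 0.225 and 2.71 CPM (median 1.54) and 0.557 and 6.44 CPM (median 2.19) on caloric restriction. At ZT0 on caloric restriction it read 3.55, 3.62 and 4.34 CPM in GR LKO livers, against 0.778, 1.66 and 1.79 CPM in WT, with no overlap. That difference of 1.36 was not called by edgeR and was called by DESeq2 (adjusted p = 0.0332). No other time point called *Gdf15* by either tool.

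*Fgl1* (ENSMUSG00000031594, chromosome 8, minus strand) encodes fibrinogen-like protein 1, which hepatocytes secrete. In the diet experiment it had 119.8, 152 and 156 CPM on control diet and 224, 282 and 303 CPM on caloric restriction. The groups did not overlap, and *Fgl1* rose by 1.04 (SE 0.133, edgeR adjusted p = 0.0011, higher in 3 of 3). In the time series at ZT12 the diet difference in WT was 0.66 and not called (edgeR adjusted p = 0.183). With CORT it had 399, 431 and 838 CPM against 75.0, 88.3 and 117 CPM in the controls. Every CORT liver lay far above the highest control, and *Fgl1* rose by 2.68 (SE 0.341, edgeR adjusted p = 0.00696), a call that held with any library left out. CORT raised *Fgl1* by 1.62 more than caloric restriction did (difference -1.62, SE 0.392, edgeR adjusted p = 0.0132), also with any library left out.

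In the time series *Fgl1* lay between 56.3 and 186 CPM in WT (median 97.2) and between 91.9 and 161 CPM in GR LKO livers (median 121) on control diet. On caloric restriction it lay between 127 and 684 CPM (median 153) and between 112 and 356 CPM (median 153). The top value belonged to a single WT liver at ZT8, whose 684 CPM stood beside 147 and 156 CPM in the other 2. That library also had the highest summed level of 14 acute phase genes in its group (34490 CPM against 12790 and 12704 CPM) and of 8 Kupffer and myeloid markers (394 CPM against 155 and 229 CPM), whose part in the result was not tested. The genotype difference at ZT8 was -1.36 (edgeR adjusted p = 0.278) and was carried largely by the WT library at 684 CPM. No genotype comparison called *Fgl1* by edgeR (lowest this -1.36 at ZT8, highest 0.52). By DESeq2 it was called at ZT4 on control diet (0.52, adjusted p = 0.0309).

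The CORT rise of *Fgl1* stood beside a rise of the acute phase genes. The 14 acute phase genes and STAT3 targets summed to 12750, 14297 and 16308 CPM in the controls and to 26840, 30629 and 27679 CPM with CORT. All CORT livers were above all controls, and 13 of the 13 genes tested rose (median 1.4, 8.11% of all genes called). Among them *Lcn2* rose by 6.97, *Saa2* by 6.15, *Saa1* by 5.20 and *Hp* by 1.33. Caloric restriction raised 4 and lowered 2 of the 14 (median -0.00266, 47.1% of all genes called), with *Il6ra* up by 1.604 while *Saa1* fell by 2.23 and *Saa2* by 1.599. Between the effects 10 of the 14 differed, all in the direction of CORT (median -0.96, 22.5% of all genes). GR deletion at ZT12 lowered 6 and raised 1 of 14 on caloric restriction (median -0.37, 15.3% of all genes), with *Lcn2* down by 2.15 and *Orm2* up by 1.45. On control diet it lowered 1 of 14, *Hp* (median -0.20, 2.08%).

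Genes of the integrated stress response, several of which share regulators with *Gdf15* and *Fgf21*, were counted as well. Caloric restriction raised 8 and lowered 2 of 17 (median 0.40, 47.1% of all genes called). The rise was led by *Ddit4*, an inhibitor of mTORC1, at 5.66 and *Atf3* at 3.92, with *Atf4* itself up by 0.40 and *Shmt2* down by 0.52. CORT raised 7 and lowered 1 of 15 (median 0.37, 8.11% of all genes), with *Chac1* up by 3.89, *Ddit4* by 3.51 and *Cebpb* by 2.04, while *Atf4* fell by 0.49. Of 17 genes, 3 were higher and 4 lower under caloric restriction than under CORT (median 0.01, 22.5% of all genes), *Atf4* by 0.91 and *Chac1* at -4.82. At ZT12 GR deletion lowered 2 of 15 on caloric restriction, *Ddit4* by 2.90 and *Cebpb* by 1.03 (median -0.24, 15.3% of all genes). None of 12 was called by edgeR on control diet (median -0.13, 2.08%).

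*Angptl4* (ENSMUSG00000002289, chromosome 17, minus strand), whose product inhibits lipoprotein lipase in fasting, was called in the diet, CORT, genotype and interaction comparisons. It had 116, 122 and 123 CPM in the control livers of the diet experiment and 243, 250.1 and 365 CPM on caloric restriction, a rise of 1.38 (SE 0.169, edgeR adjusted p = 0.000946, higher in 3 of 3). With CORT it had 116, 145 and 162 CPM against 26.1, 32.5 and 35.7 CPM in the controls. The CORT livers stood well above their controls, and *Angptl4* rose by 2.25 (SE 0.169, edgeR adjusted p = 0.00128, higher in 3 of 3), which held with any library left out. The CORT rise exceeded the diet rise by 0.86 (difference -0.86, SE 0.256, edgeR adjusted p = 0.0334), and that call was lost in 8 of the 12 refits with a library left out (adjusted p up to 0.0769). The control livers of the diet experiment (116 to 123 CPM) lay above those of the corticosterone experiment and of the time series at ZT12 (58.0 to 110.5 CPM). Feeding regime, experiment and library batch cannot be told apart there.

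GR deletion lowered *Angptl4* on caloric restriction. At ZT12 it read 212, 225 and 244 CPM in WT, against 63.1, 71.2 and 85.9 CPM in GR LKO livers. The genotypes were far apart, and *Angptl4* fell by 1.79 (SE 0.121, edgeR adjusted p = 0.000329, lower in 3 of 3), with any library left out too. At ZT8 it had 50.7, 67.3 and 75.9 CPM in WT and 30.9, 33.9 and 38.6 CPM in GR LKO livers. Those groups were apart as well, and it fell by 0.95 (SE 0.139, edgeR adjusted p = 0.018), a call lost without WT replicate 3 or any 1 of the GR LKO livers (adjusted p up to 0.0909). At ZT16 the order turned, with 23.9, 24.999 and 32.5 CPM in WT and 34.7, 41.6 and 44.9 CPM in GR LKO livers, without overlap. That difference of 0.53 missed edgeR's threshold (adjusted p = 0.0782) and passed DESeq2's (0.0229).

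On control diet at ZT12 *Angptl4* had 58.0, 59.3, 89.1 and 110.5 CPM in WT and 22.8, 34.3, 37.7 and 51.5 CPM in GR LKO livers. The 4 GR LKO livers lay below the 4 WT livers, and the difference of -1.21 missed edgeR's threshold (adjusted p = 0.0639) and passed DESeq2's (0.000352). At ZT16 it read 39.2, 44.9, 45.0 and 49.6 CPM in WT, against 20.4, 20.5 and 20.7 CPM in GR LKO livers. Here the groups were tight and apart, and *Angptl4* fell by 1.12 (SE 0.0876, edgeR adjusted p = 0.00238, lower in 3 of 3). That call held with any library left out and was lost in a fit over all libraries of the diet (adjusted p = 0.179). The genotype effect at ZT16 thus had opposite signs on the diets, and the interaction of genotype and diet was called (1.65, SE 0.168, edgeR adjusted p = 0.00108), with each of the 13 libraries left out in turn too. Diet and library batch coincide in this interaction and cannot be told apart. At ZT12 the interaction was -0.57 (95% interval -1.26 to 0.12, edgeR adjusted p = 0.503), and no difference between the diets was detected there. Over the 6 time points the *Angptl4* differences between genotypes ran from -1.79 to 0.53 under restriction and from -1.21 to 0.88 with control diet.

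**Figure D2:**
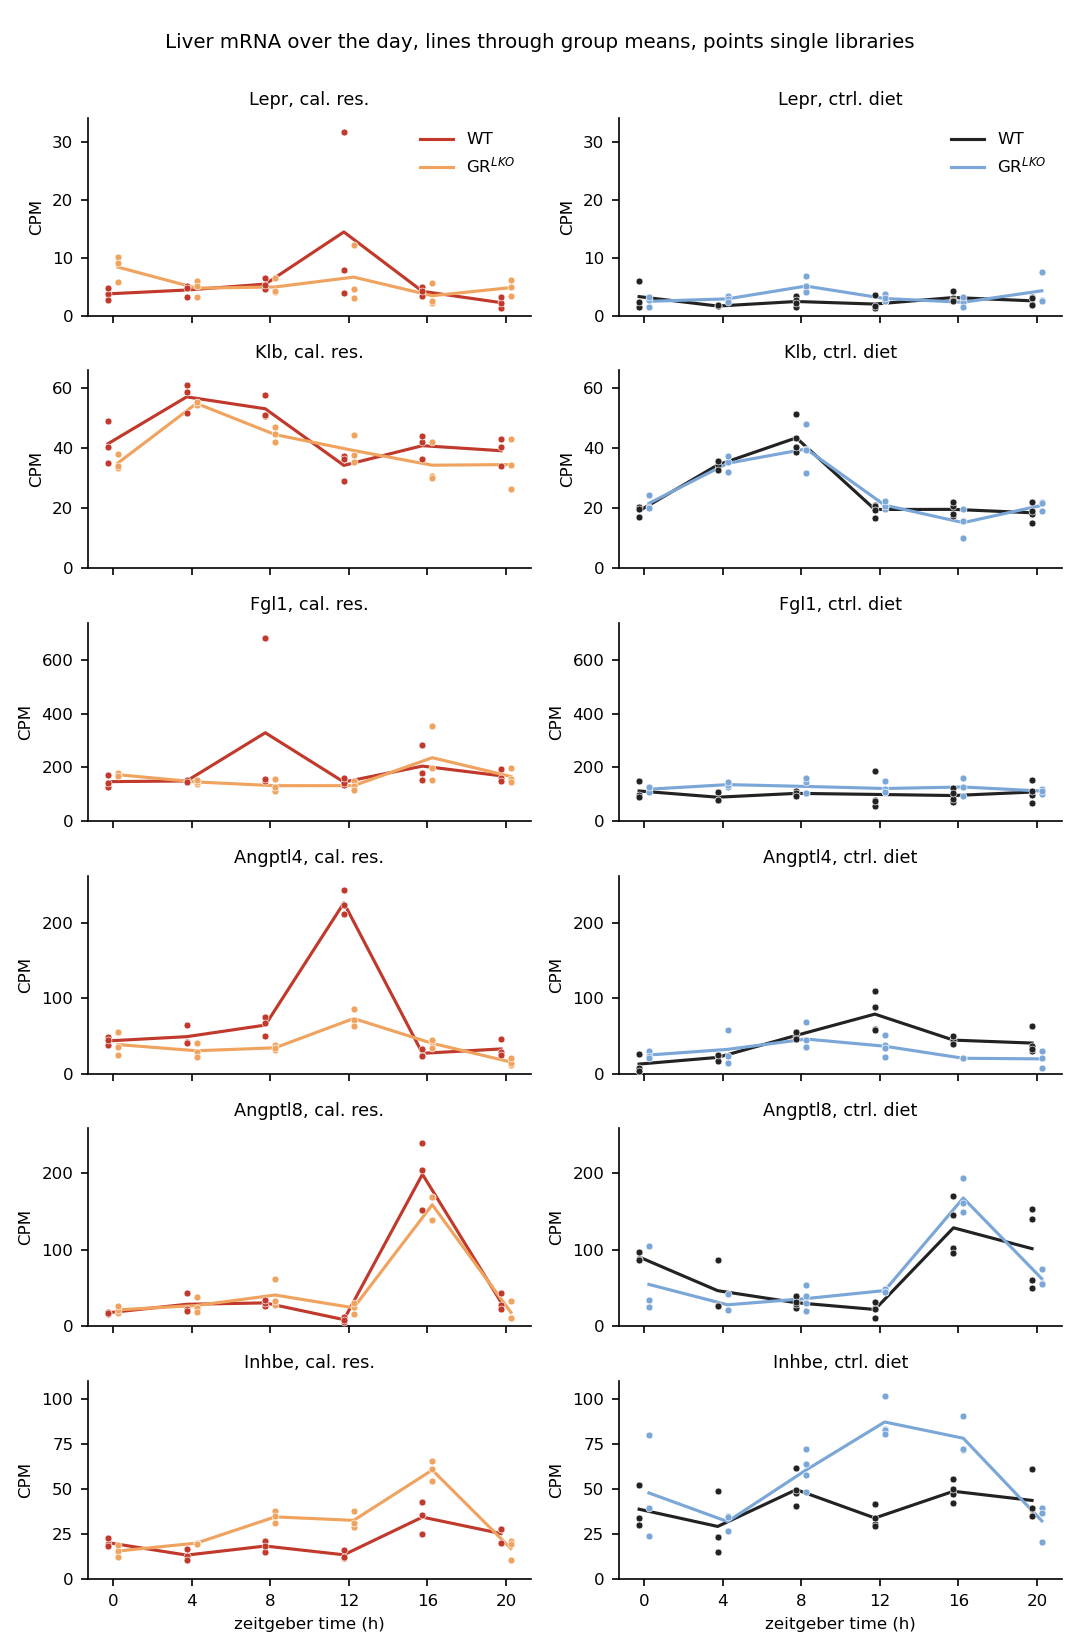
Levels of 6 of the genes over the day, in CPM on axes from 0, against zeitgeber time in hours, with caloric restriction on the left and control diet on the right. Lines join group means, and points are single libraries (n = 3 or 4) of WT and GR LKO livers. *Angptl4* peaks at ZT12 in WT livers on caloric restriction (212 to 244 CPM), *Angptl8* at ZT16 on both diets, and single high libraries of *Lepr* (31.8 CPM) and *Fgl1* (684 CPM) stand out.

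*Angptl4* in WT livers was highest at ZT12 on both diets, and this group stood above the next without overlap (means 227 CPM restricted and 79.2 CPM with control diet). JTK_CYCLE called its rhythm in WT on control diet (range 2.18, adjusted p = 8.22e-05), in WT on caloric restriction (2.37, adjusted p = 0.0431) and in GR LKO livers on control diet (1.21, adjusted p = 0.0302). In GR LKO livers on caloric restriction the range was 1.21 and the test was not passed (adjusted p = 0.103), though edgeR's sine and cosine test was (0.0345). With any of the replicate numbers left out, the *Angptl4* call in WT on caloric restriction was lost (adjusted p = 0.0591 to 0.358), and that in GR LKO livers on control diet was lost without number 1, 2 or 3 (up to 0.275). A difference between the genotypes' rhythms was not called on either diet (edgeR adjusted p = 0.669 on caloric restriction and 0.149 on control diet).

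*Angptl8* (ENSMUSG00000047822, chromosome 9, plus strand) is the member of the ANGPTL family that feeding and insulin induce. In the diet experiment it had 6.86, 9.96 and 23.0 CPM on control diet and 14.6, 17.1 and 17.9 CPM on caloric restriction. The control livers spread on both sides of the restricted ones, and the difference was 0.43 (95% interval -0.368 to 1.23, edgeR adjusted p = 0.42), which passed without control replicate 3 (1.11, adjusted p = 0.00603). The ZT12 WT livers of the time series gave the opposite sign (-1.22, edgeR adjusted p = 0.0281), in a comparison where diet and batch coincide. With CORT *Angptl8* had 4.18, 10.8 and 18.4 CPM against 54.9, 65.2 and 184 CPM in the controls. All CORT livers lay below all controls, and *Angptl8* fell by 3.13 (SE 0.638, edgeR adjusted p = 0.0292), a call lost when any library other than CORT replicate 2 was left out (adjusted p up to 0.0927). The effects differed by 3.57 (SE 0.831, edgeR adjusted p = 0.0109), with any library left out too.

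GR deletion raised *Angptl8* at ZT12 on caloric restriction. Its level was 5.68, 8.95 and 11.8 CPM in WT, against 16.8, 25.7 and 30.1 CPM in GR LKO livers. The genotypes did not overlap, and the gene rose by 1.31 (SE 0.298, edgeR adjusted p = 0.0271, higher in 3 of 3), but the call was lost without WT replicate 2 or 3 or GR LKO replicate 2 or 3 (adjusted p = 0.0634 to 0.0873). On control diet the ZT12 levels were 10.7, 22.3, 23.4 and 31.8 CPM in WT and 44.3, 44.8, 48.8 and 48.8 CPM in GR LKO livers. These groups were apart too, and the difference of 1.00 missed edgeR's threshold (adjusted p = 0.0837) and passed DESeq2's (0.00326), and edgeR's too without WT replicate 2 or 4. Differences at the other times reached -0.87 at ZT20 on caloric restriction and -0.79 at ZT4 on control diet, neither called. The interaction at ZT12 was 0.32 (95% interval -0.508 to 1.15, edgeR adjusted p = 0.801).

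At ZT16, after food was given at ZT12, *Angptl8* was far higher, at 152, 204 and 239 CPM in WT and 138, 168 and 169 CPM in GR LKO livers on caloric restriction. On control diet it had 96.0, 103, 145 and 169 CPM in WT and 148, 160.1 and 193 CPM in GR LKO livers. Genotypes overlapped at ZT16 on both diets, while on caloric restriction all ZT16 livers lay above those of every other time point. JTK_CYCLE called the rhythm on control diet in WT (range 2.35, adjusted p = 0.0179) and in GR LKO livers (2.19, adjusted p = 0.00344). The WT call was lost without the libraries numbered 1, 2 or 3 (up to 0.172) and the GR LKO call without number 1 (0.105). On caloric restriction it was not called by JTK_CYCLE in either genotype (adjusted p = 1 and 0.587, ranges 2.45 and 2.26), and edgeR's sine and cosine test passed in both (0.0155 and 0.0148).

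*Angptl6* (ENSMUSG00000038742, chromosome 9, minus strand) encodes a secreted angiopoietin-like protein also called angiopoietin-related growth factor. It stayed within a narrow band, from 5.25 to 13.7 CPM over the libraries of the time series, from 7.58 to 10.5 CPM in the diet experiment and from 7.31 to 11.4 CPM in the corticosterone experiment. No comparison of 2 groups called it by edgeR. The diet difference was 0.25 (95% interval -0.0281 to 0.526, edgeR adjusted p = 0.186), which passed without control replicate 1 (0.40, 0.0446), and the CORT difference was -0.32 (adjusted p = 0.216) with all 3 CORT livers below the controls. The genotype differences lay between -0.19 and 0.23.

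Of 13 further genes around ANGPTL proteins and lipoprotein lipase, caloric restriction raised 6 and lowered 3 (median 0.14, 47.1% of all genes called). *Lipg* (endothelial lipase) rose by 1.16, *Apoc3* by 0.57 and *Apoa5* by 0.50, while *Lpl* (lipoprotein lipase) fell by 1.12. CORT raised 1 of 12, *Furin*, by 0.57 (median 0.04, 8.11% of all genes), and 2 of 13 were higher and 1 lower under caloric restriction than under CORT (median -0.10, 22.5%). GR deletion at ZT12 raised 1 of 12 on caloric restriction, *Pcsk6*, by 0.60 (median 0.12, 15.3% of all genes), and edgeR called none of 12 on control diet (median -0.00345, 2.08%). *Furin* and *Pcsk6* encode proprotein convertases that can cleave ANGPTL proteins.

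Fasting genes that respond to PPAR-alpha, the nuclear receptor that also drives *Fgf21* and *Angptl4*, moved both ways with caloric restriction. Of 13, 6 rose and 3 fell (median 0.19, 47.1% of all genes called). *Pdk4* rose by 5.53 and *Cyp4a14* by 4.60, while *Vnn1* fell by 1.71, *Creb3l3* by 0.60 and *Cpt1a* by 0.45. CORT raised *Cpt1a* by 0.83 and lowered *Pdk4* by 1.38 and *Plin2* by 0.86, 3 of 13 (median 0.06, 8.11% of all genes). The effects differed for 7 of 13, 4 higher and 3 lower under caloric restriction (median 0.41, 22.5% of all genes). With GR deleted, 2 of 13 rose and 1 fell at ZT12 on caloric restriction (median 0.06, 15.3% of all genes). On control diet 1 of 13, *Vnn1*, rose by 1.47 (median 0.43, 2.08%).

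Lipogenic and insulin-responsive genes, the group to which *Angptl8* belongs by its known induction, were raised in 6 of 12 by GR deletion at ZT12 on caloric restriction (median 0.77), where 15.3% of all genes were called. *Srebf1* rose by 1.598, *Elovl6* by 1.301 and *Scd1* by 1.02. On control diet edgeR called 0 of 11 (median 0.12, 2.08% of all genes). Caloric restriction in WT raised 5 and lowered 2 of 12 (median 0.40, 47.1% of all genes), with *Fasn* up by 0.79 and *Srebf1* down by 0.50. With CORT edgeR called 0 of 12 (median -0.38, 8.11% of all genes), and 3 of 12 were higher under caloric restriction than under CORT (median 0.73, 22.5%).

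*Inhbe* (ENSMUSG00000047492, chromosome 10, minus strand), the activin E gene, had 75.1, 77.2 and 102 CPM on control diet and 8.31, 11.7 and 12.4 CPM on caloric restriction in the diet experiment. The restricted livers lay far below the lowest control, and *Inhbe* fell by 2.86 (SE 0.189, edgeR adjusted p = 0.00013, lower in 3 of 3). No other of the 9 genes fell with caloric restriction there. With CORT it had 5.94, 13.7 and 15.7 CPM against 37.0, 41.7 and 67.5 CPM in the controls. All CORT livers lay below the controls, and *Inhbe* fell by 1.97 (SE 0.368, edgeR adjusted p = 0.0226), lost without control replicate 1 or 2 or CORT replicate 1 or 3 (adjusted p = 0.0507 to 0.0705). The 2 effects differed by -0.87 (95% interval -1.72 to -0.00776, edgeR adjusted p = 0.182), which did not pass.

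GR deletion raised *Inhbe* at ZT12 on both diets. Under restriction it read 11.6, 12.6 and 16.4 CPM in WT, against 29.0, 31.0 and 38.0 CPM in GR LKO livers, a rise of 1.12 (SE 0.155, edgeR adjusted p = 0.00456, higher in 3 of 3). With control diet it read 29.7, 30.8, 33.8 and 41.7 CPM in WT, against 81.0, 83.2, 83.5 and 102 CPM in GR LKO livers. The genotypes were apart on each diet, and the lowest GR LKO liver lay well above the highest WT liver. *Inhbe* rose by 1.27 on control diet (SE 0.132, edgeR adjusted p = 0.00169, higher in 4 of 4), and both ZT12 calls held with any library left out. The interaction at ZT12 was -0.14 (95% interval -0.564 to 0.282, edgeR adjusted p = 0.836).

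At ZT8 on caloric restriction *Inhbe* had 15.3, 18.6 and 21.3 CPM in WT and 31.2, 35.03 and 37.7 CPM in GR LKO livers. It rose by 0.85 (SE 0.159, edgeR adjusted p = 0.0404), lost when any library other than WT replicate 1 was left out (adjusted p up to 0.153). At ZT16 on control diet it had 42.33, 47.3, 50.1 and 55.7 CPM in WT and 72.0, 72.7 and 90.6 CPM in GR LKO livers. The GR LKO livers lay above at both times, and at ZT16 the gene rose by 0.68 (SE 0.116, edgeR adjusted p = 0.0317), a call that held without WT replicate 2 and was lost without any other library (adjusted p up to 0.0938) and in a fit over all libraries of the diet (0.257). At ZT16 on caloric restriction the levels were 25.02, 35.8 and 42.7 CPM in WT and 54.7, 61.5 and 66.0 CPM in GR LKO livers. These were apart as well, and the difference of 0.77 missed edgeR's threshold (adjusted p = 0.0614) and passed DESeq2's (0.00182). Over the 6 time points the *Inhbe* differences ran from -0.64 to 1.12 on caloric restriction and from -0.49 to 1.27 on control diet, with the lowest at ZT20 on each diet, not called.

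**Figure D3:**
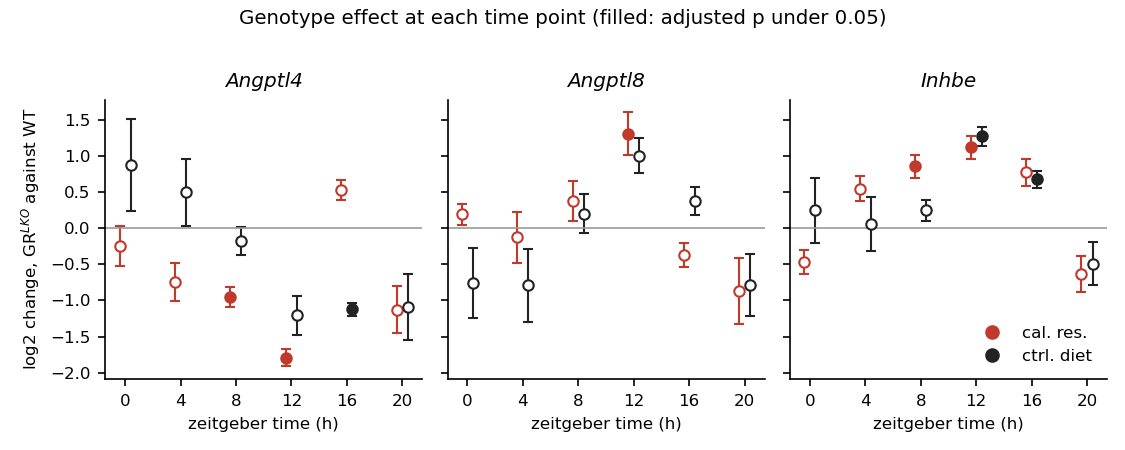
Genotype effect (log2 change of GR LKO against WT livers) at each zeitgeber time in hours, for *Angptl4*, *Angptl8* and *Inhbe* on caloric restriction and control diet. Points are estimates, bars are standard errors, and filled points passed edgeR's test at an adjusted p under 0.05. *Angptl4* reaches -1.79 at ZT12 on caloric restriction, and *Inhbe* reaches 1.12 and 1.27 at ZT12 on the 2 diets.

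The rhythm of *Inhbe* was called by JTK_CYCLE in GR LKO livers on control diet (range 1.35, adjusted p = 0.00439) and on caloric restriction (1.83, adjusted p = 0.0089), with the peak of the sine and cosine fit near ZT13 both times. In WT livers it was called on caloric restriction (1.11, adjusted p = 0.0346, sine and cosine peak at 17.6 h) and not on control diet (0.38, adjusted p = 0.824). Both calls on caloric restriction were lost without any replicate number (up to 0.16 in GR LKO livers and 0.349 in WT), and the GR LKO call on control diet without number 3 (0.0628). A difference between the genotypes' rhythms was called on caloric restriction (edgeR adjusted p = 0.04995) and was lost without the WT liver at ZT12 with the high *Lepr* level (0.108) or any replicate number (up to 0.479). On control diet the same test gave 0.502.

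Of other genes of the activin and inhibin axis, caloric restriction raised 3 and lowered 2 of 12 (median 0.23, 47.1% of all genes called). *Inhbb*, which encodes the subunit of activin B, rose by 1.37 and *Smad7*, an inhibitor of the pathway, by 1.27, while the receptor gene *Acvr1b* fell by 1.13 and *Inhba* by 0.88. CORT raised 2 of 10, *Inhbb* by 3.95 and *Tgfbr3* by 1.05 (median -0.19, 8.11% of all genes). *Inhbb* and *Inhbe* thus moved in opposite directions under each treatment. Of 12 genes, 1 was higher and 3 were lower under caloric restriction than under CORT (median 0.08, 22.5% of all genes). EdgeR called none of 10 for the genotype at ZT12 on either diet (medians 0.20 and 0.05, 15.3% and 2.08% of all genes).

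Over the 6 time points the counts of called genes were small. On caloric restriction GR deletion changed 3 of 9 genes at ZT12 (*Angptl4*, *Angptl8*, *Inhbe*; 15.3% of all genes) and 2 of 8 at ZT8 (*Angptl4*, *Inhbe*; 2.55%). EdgeR called 0 of 8 at ZT0 (background 0.502%), ZT4 (0.69%), ZT16 (4.54%) and ZT20 (1.47%). At those 4 times 4, 2, 2 and 3 of the genes had an unadjusted p under 0.05, and DESeq2 called 2, 0, 3 and 1. The median log2 change of the genes at ZT12 was 0.04, beside -0.0041 over all genes.

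On control diet GR deletion changed 1 of 8 genes at ZT12 (*Inhbe*; 2.08% of all genes) and 2 of 8 at ZT16 (*Angptl4*, *Inhbe*; 1.98%). At ZT0 (0.536%), ZT4 (0.195%), ZT8 (1.43%) and ZT20 (0.42%) edgeR called 0 of 8, with 0, 2, 1 and 1 at an unadjusted p under 0.05 and 0, 1, 1 and 0 by DESeq2. The interaction of genotype and diet was called for 1 of 9 genes at ZT16 (*Angptl4*; 0.234% of all genes). It was called for 0 of 9 at ZT12 (1.01%) and for 0 of 8 at ZT8 (0.081%), with 0 and 4 genes at an unadjusted p under 0.05 and 0 by DESeq2. At ZT0, ZT4 and ZT20 edgeR called 0% of all genes and 0 of the 8 described, while 1266, 746 and 878 of all genes had an unadjusted p under 0.05 and DESeq2 called 168, 37 and 48, with 2, 1 and 0 of the 8 at an unadjusted p under 0.05 and 0 by DESeq2.

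JTK_CYCLE called a rhythm for 3 of the 9 genes in WT livers on caloric restriction (27.8% of all genes), 2 in GR LKO livers on caloric restriction (25.6%), 3 in WT on control diet (32.2%) and 4 in GR LKO livers on control diet (28.2%). *Lepr* was among the 3 in WT on caloric restriction (range 2.14, adjusted p = 0.0217), and its call was lost without any replicate number (up to 0.214). *Fgl1* was among the 2 in GR LKO livers on caloric restriction (range 0.68, adjusted p = 0.0468), likewise lost (0.214 to 0.295). Differences between genotypes were called for 1 gene, *Inhbe*, on caloric restriction (0.997%) and for 0 on control diet (0.374%), with 3 at an unadjusted p under 0.05 and 0 by limma. Differences between diets were called for 2 genes in WT, *Lepr* (edgeR adjusted p = 0.0104) and *Klb* (27.3%), and for 0 in GR LKO livers (19.2%), with 2 at an unadjusted p under 0.05 and 0 by limma. The *Lepr* call was lost without replicate 2 (0.117) or 3 (0.128).

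Known GR targets, a list that also holds *Nr3c1* itself, give the background of these comparisons. Caloric restriction raised 8 of 10 (median 1.72, 47.1% of all genes called), with *Tat* up by 2.97 and *Fkbp5* by 2.36. CORT raised 9 of 10 (median 2.22, 8.11%), with *Mt2* up by 8.86. GR deletion at ZT12 lowered 8 of 10 on caloric restriction (median -1.46, 15.3% of all genes called) and 6 of 10 on control diet (median -1.14, 2.08%). Between the treatments 1 was higher and 2 were lower under caloric restriction (median -0.26, 22.5% of all genes). *Fkbp5* rose to a mean of 317 CPM (SD 44.2, n = 3) on caloric restriction and 228 CPM (SD 41.8, n = 3) with CORT, from 66.8 and 39.3 CPM.

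Of 22 other secreted liver factors, caloric restriction raised 10 and lowered 2 (median 0.41, 47.1% of all genes called), and CORT raised 4 and lowered 1 of 21 (median 0.25, 8.11%). *Igfbp1*, which binds insulin-like growth factors, rose by 5.11 and by 6.60. GR deletion at ZT12 on caloric restriction lowered 6 and raised 2 of 21 (median -0.26, 15.3%), with *Igfbp1* down by 3.64, *Tsku* by 2.45 and *Serpina6* (corticosteroid-binding globulin) up by 2.12. On control diet it raised 1 of 20, *Serpina6*, by 0.68 (median -0.07, 2.08%). Between the treatments 5 of 22 were higher and 2 lower under caloric restriction (median 0.04, 22.5%).

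Of 13 clock genes tested, caloric restriction changed 6 upwards and 4 downwards at ZT12 (median 0.16, 47.1% of all genes called), with *Arntl* up by 4.57 and *Dbp* down by 3.22. CORT raised *Per1* by 2.04 and *Cry2* by 0.68, 2 of 13 (median 0.45, 8.11% of all genes). The effects differed for 10 of 13, 4 higher and 6 lower under caloric restriction (median -0.51, 22.5% of all genes). GR deletion at ZT12 raised 4 and lowered 5 of 13 on caloric restriction (median -0.10, 15.3% of all genes) and lowered 1 of 11, *Per1*, on control diet (median 0.05, 2.08%). The part of these clock changes in the results for the 9 genes was not tested.

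Marker genes of liver cell types moved with the groups as well. Beside all marker counts here and below, 47.1% of all genes were called with caloric restriction and 8.11% with CORT. For GR deletion at ZT12 the shares were 15.3% on caloric restriction and 2.08% on control diet. Of 7 hepatocyte markers caloric restriction raised 4 and lowered 1, CORT raised 2, and GR deletion at ZT12 lowered 5 on caloric restriction and 4 on control diet. *Tat*, which is also in the list of known GR targets, was among the 4 on control diet. *Alb* (-0.22), *Ttr* (-0.08) and *Serpina1c* (-0.24) were not called there. The sum of the 7 markers at ZT12 on caloric restriction was 145490 to 147360 CPM in WT and 110690 to 121650 CPM in GR LKO livers. Of 8 Kupffer and myeloid markers, GR deletion raised 4 at ZT12 on caloric restriction, with sums of 45.8, 53.2 and 73.7 CPM in WT and 106, 146 and 174 CPM in GR LKO livers, *Clec4f* the most abundant in 5 of these 6 libraries and no marker at 0. On control diet none was called, caloric restriction lowered 1 and CORT raised 2. The part of these markers in the changes of *Angptl4*, *Angptl8* and *Inhbe* was not tested.

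The adipocyte list was carried by *Car3*, which hepatocytes also express, while *Lep* and *Plin1* were at 0 in every ZT12 library. Its sum fell from 1168 to 1246 CPM on control diet to 64.2 to 252 CPM on caloric restriction, with both tested markers down. In the corticosterone experiment it went from 2621 to 3365 CPM to 1229 to 1675 CPM, with 1 of 2 markers down. At ZT12 on caloric restriction it was 227 to 362 CPM in WT and 1467 to 1781 CPM in GR LKO livers, with 1 of 2 markers up. Its part in the results was not tested.

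With caloric restriction (47.1% of all genes called) 4 of 6 endothelial markers rose, 2 of 6 stellate markers rose and 1 fell. Further, 2 of 4 cholangiocyte markers rose, and 1 of 3 lymphocyte and 1 of 5 erythrocyte markers fell. With CORT (8.11% of all genes) 1 of 6 endothelial, 1 of 6 stellate and 1 of 4 cholangiocyte markers fell, and edgeR called none of the lymphocyte, neutrophil and erythrocyte markers tested. GR deletion at ZT12 on caloric restriction (15.3% of all genes) raised 1 of 6 endothelial and 1 of 5 erythrocyte markers and lowered 1 of 3 cholangiocyte markers. No marker of the exocrine pancreas passed the filter in any of these 3 comparisons. WT replicate 3 at ZT12 on caloric restriction nonetheless held 841 CPM of the 6 pancreas markers, against 0.107 and 0.465 CPM in the other 2 WT livers. Without this library the genotype calls of *Angptl4* and *Inhbe* held there, and that of *Angptl8* was lost. The part of the pancreas markers themselves in these results was not tested. A WT liver at ZT16 on control diet, replicate 2, held 591 CPM.

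Genes whose pattern over the day was most like each of the 9 were sought by Pearson's r of log2 group means over the 12 groups of each diet, ranked by the lower r among 8642 or 8643 genes. These points share libraries and time of day, and the r are descriptions. *Angptl4* was closest to *Foxo1* (r 0.858 on caloric restriction, 0.907 on control diet), *Fbxo31* (0.853, 0.893) and *Pck1* (0.841, 0.844). *Angptl8* was closest to *Actg1* (0.952, 0.892), *Klb* to *Mapk6* (0.869, 0.919), *Inhbe* to *Med22* (0.832, 0.845), *Gdf15* to *Notch1* (0.825, 0.83) and *Angptl6* to *Ltbp4* (0.848, 0.811). *Lepr* (*Gm15500*, 0.74, 0.835), *Fgf21* (*Ints8*, 0.73, 0.644) and *Fgl1* (*Ndufab1*, 0.571, 0.601) had weaker partners.

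Of the 12 groups of each diet, *Inhbe* was highest in GR LKO livers at ZT16 on caloric restriction (60.7 CPM, SD 5.69, n = 3) and at ZT12 on control diet (87.5 CPM, SD 9.87, n = 4).

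By GENCODE vM21 on GRCm38, 3 of the 9 genes overlap a gene on the other strand, and whether strand was used in counting is not stated. *Angptl6* overlaps *A230050P20Rik*, which fell by 1.00 with caloric restriction (edgeR adjusted p = 0.000194) and by 1.53 with CORT (0.00317) and rose by 0.80 with GR deletion at ZT12 on caloric restriction (0.00467), where *Angptl6* was not called. *Angptl8* lies inside *Dock6*, which rose by 0.55 with caloric restriction (0.0142) and was not called with CORT (-0.20, 0.692) or GR deletion at ZT12 on caloric restriction (0.59, 0.263). *Inhbe* lies within the antisense gene *Gm47200*, which was tested in none of the comparisons. How far reads of these pairs were shared in counting was not tested.

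RefSeq promoter windows of 300 bases, from 250 before to 50 after the start (GRCm38.p6), were at hand for 7 of the 9 genes in 9 windows, and for *Fgl1* and *Angptl4* none was printed or searched. Both strands were searched for 6 motifs, and the share of all 32851 promoters with each was 19% for AGAACA (a GR half-site), 3.65% for GTAAACA (FOXO), 7.15% for CACGTG (E-box), 16.3% for AGGTCA (nuclear receptor half-site), 3.97% for TGATGNAA (the core of the element bound by ATF4 with a C/EBP partner) and 3.38% for TTATGNAA (D-box core). The GR half-site, the FOXO motif and the D-box core were in none of the 9 windows. *Fgf21* held CACGTG and TGATGNAA, and *Gdf15* held AGGTCA in its first window and CACGTG in the other. *Angptl8* and *Inhbe*, both higher in GR LKO livers at ZT12 on caloric restriction and both lower with CORT, each held TGATGNAA, and their windows are printed for that reason, with the match in capitals. The *Angptl8* window is chr9:21835260-21835559 on the plus strand, and the *Inhbe* window chr10:127351799-127352098 on the minus strand, where the match reads on the opposite strand of the window. A match is a description of letters and not a binding site.
Angptl8: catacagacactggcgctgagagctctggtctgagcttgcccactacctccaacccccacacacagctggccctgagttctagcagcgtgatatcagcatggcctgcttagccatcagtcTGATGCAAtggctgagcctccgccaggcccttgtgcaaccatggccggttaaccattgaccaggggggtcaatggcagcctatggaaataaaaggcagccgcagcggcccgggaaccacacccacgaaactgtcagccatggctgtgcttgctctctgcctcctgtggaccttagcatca
Inhbe: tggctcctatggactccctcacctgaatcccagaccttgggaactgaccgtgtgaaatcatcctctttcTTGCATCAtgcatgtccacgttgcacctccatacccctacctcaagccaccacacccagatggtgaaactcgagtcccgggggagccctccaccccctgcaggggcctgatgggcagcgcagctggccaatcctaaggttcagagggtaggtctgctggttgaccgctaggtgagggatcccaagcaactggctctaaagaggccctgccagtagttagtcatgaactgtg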

How the data were processed

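The counts are the estimated counts per gene as deposited, which the authors made with FastQC 0.11.9, Salmon 1.8.0 and tximport 1.18.0, without normalization. They were rounded for the tests. Groups came from the sample labels, and none of the 90 libraries was left out. Tests used R 4.3.3 with edgeR 4.0.16 (TMM scaling, filterByExpr at a minimum count of 10, quasi-likelihood F test, Benjamini-Hochberg adjustment at 0.05). DESeq2 1.42.0 and limma 3.58.1 were the other tools. SE is the log2 change divided by the root of F. Rhythms were tested with an own implementation of JTK_CYCLE with exact null distributions, at a period of 24 h, on variance-stabilized values, with the peak-to-trough range and peak time from an edgeR fit of sine and cosine. Diets in the time series coincide with library batches, so genotype effects were tested there within each diet. Their interaction with diet was tested too. In it a genotype effect that differs between diets cannot be told apart from one that differs between batches. The 9 genes were found by symbol. The genes and lists were chosen with earlier results of these data known, and 2 alternatives for the rhythms were added after the data had been seen.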

Additional observations from a re-analysis of the deposited data

Results flagged for a closer look

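*Inhbe* in GR LKO replicate 3 at ZT12 on control diet held 102.16 CPM, apart from the nearest library of its group (83.477 CPM) by 0.882 of the group's range. It was the 1 library value so marked among 54 sets of 4 values (9 genes in each of the 6 groups of 4 libraries), where chance marks about 1 in 20 sets.

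These results differed between groups of comparisons. *Angptl4* had an interaction of genotype and diet at ZT16 (1.652), where diet and library batch coincide. The diet and corticosterone effects at ZT12 differed for *Lepr* (1.432), *Fgl1* (-1.624), *Angptl4* (-0.8619) and *Angptl8* (3.575). By edgeR adjusted p, the rhythm of *Inhbe* differed between genotypes on caloric restriction (0.04995), and the rhythms of *Lepr* (0.01044) and *Klb* (0.0301) differed between diets in WT, where diet and library batch coincide.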

How the results depend on the processing

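The diet effect on *Angptl8* at ZT12 in WT turned from 0.43 to -1.215 when taken from the time series (WT livers at ZT12), and the calls of *Gdf15* (0.33) and *Fgl1* (0.66) were lost there. The counts of called genes among the 9 moved as follows, first with edgeR and then with the alternative. DESeq2 moved the genotype effect on caloric restriction at ZT0 from 0 to 2, at ZT16 from 0 to 3 and at ZT20 from 0 to 1, and the genotype effect on control diet at ZT4 from 0 to 1, at ZT8 from 0 to 1 and at ZT12 from 1 to 3. No filter on low counts moved the genotype effect on caloric restriction at ZT16 from 0 to 2. A fit over all libraries of the diet moved it at ZT16 from 0 to 2 and at ZT20 from 0 to 1, and on control diet at ZT16 from 2 to 0. EdgeR's sine and cosine and its time points as a factor each called 6 rhythms in WT on caloric restriction, where JTK_CYCLE called 3, and each called 5 in GR LKO livers, where it called 2. Limma on VST values called 1 rhythm difference between diets in WT, where edgeR called 2.

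Replicate numbers did not pair the libraries (44 pairs, r -0.234 to 0.249). A replicate block moved the genotype effect on caloric restriction at ZT8 from 2 to 1 and at ZT16 from 0 to 1, and on control diet at ZT16 from 2 to 1.

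With a library left out, the corticosterone effect called 2 to 5 genes where all libraries gave 6, and the diet effect against the corticosterone effect 2 to 6 (4). The genotype effect on caloric restriction called 0 to 1 at ZT4 (0), 0 to 2 at ZT8 (2) and 0 to 3 at ZT16 (0). The genotype effect on control diet called 0 to 1 at ZT0 (0), 1 to 2 at ZT12 (1) and 1 to 2 at ZT16 (2). With a replicate number or chosen libraries left out, rhythms in WT on caloric restriction numbered 0 to 3 (3), those of restricted GR LKO livers 0 to 0 (2) and those of GR LKO livers with control diet 2 to 6 (4). Rhythm differences between genotypes on caloric restriction numbered 0 to 0 (1) and between diets in WT 0 to 3 (2). RLE normalization moved no count of the 9 genes.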
